A study of Mus musculus with 8 samples.

Results

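The contactins and contactin-associated proteins are cell adhesion molecules of neurons and their axons, and 10 of their genes are described here in the mouse hippocampus: Cntn1, Cntn2, Cntn3, Cntn4, Cntn5, Cntn6, Cntnap1, Cntnap2, Cntnap4 and Cntnap5a. The count table holds 40659 gene identifiers. They were chosen by family name, by a near-complete site for the microRNA miR-708-5p in Cntn4, and with the earlier fold changes of these same libraries known. Their fold changes are therefore given as a description, with p-values from a fit over all genes. All 10 passed the filter on low counts, which left 17252 genes to be tested.

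PolyA-RNA sequencing was performed on hippocampi of 8 male C57BL/6JRj mice, each a separate animal. All received a stereotactic injection of a recombinant adeno-associated virus (rAAV) into the dorsal and ventral hippocampus at postnatal week 7 to 8, with tissue taken 4 weeks later, and the labels give its stage as week 12 to 13. In the hp708 group (n = 4) the virus carried a hairpin for miR-708-5p, and in the hpCTL group (n = 4) a control hairpin. In both, the hairpin sat in the 3'UTR of EGFP under the human synapsin promoter, which drives expression in neurons, whereas the libraries hold RNA of all cells of the dissected tissue, infected or not. In such bulk tissue fewer cells of a type and less RNA per cell cannot be told apart. Total counts were between 22606824 and 28462428 per library. Expression is given in CPM, counts scaled to a common library size after edgeR's TMM normalization. The precursor gene Mir708 had 0 counts in each library, where a count of 0 allows up to 3, and the level of the microRNA is not readable from polyA-selected RNA. The source data of the study's qPCR place the mouse behind the library labelled hp708 replicate 1 under hpCTL. The fold changes of the 10 genes are therefore given with and without that library. For 16 marker lists of hippocampal regions and cell types, the lowest p of an exact permutation test between the groups was 0.114 (two-sided, adjusted p = 0.686). The smallest p that 4 against 4 libraries allow is 0.0286, so a single list could not pass after adjustment, and these tests do not show that the lists were equal.

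Contactins are immunoglobulin-superfamily proteins held to the outer membrane by a lipid (GPI) anchor, and the contactin-associated proteins (Caspr, encoded by Cntnap genes) are transmembrane proteins of the neurexin superfamily. On myelinated axons, Cntn1 and Cntnap1 form a complex that binds glial neurofascin at the paranode, next to the node of Ranvier. Cntn2 and Cntnap2 hold Kv1 potassium channels at the neighbouring juxtaparanode. Cntn3, Cntn4, Cntn5 and Cntn6 are neuronal members known for roles in axon guidance and synapse formation, with amyloid precursor proteins among the partners of Cntn4. A microRNA pairs with a messenger RNA mainly through its seed, bases 2 to 8, and pairing beyond the seed is usually partial in animals.

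The mature miR-708-5p (RefSeq, GRCm38.p6) is shown with its seed in capitals, followed by 23-base stretches of 3'UTR from GRCm39 (GENCODE M39) with the bases opposite the seed in capitals. Cntn4 carries the most completely paired site of the 10 genes, Nnat carries the other site of equal pairing in the tested genes, and the sites of Cntn1 and Cntnap1 are shown for contrast.
miR-708-5p: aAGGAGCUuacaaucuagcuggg
Cntn4: cccaactagattgtaAGCTCCTt
Nnat: cccagctagattgtaAGCTCCTg
Cntn1: tttttctttgagattAGCTCCTt
Cntnap1: gcccagtttgtagcgAGCTCCTt

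The Cntn4 site lies on the plus strand at chr6:106676993-106677015, in the 3'UTR of the gene, 2410 bases after the stop codon in a 3'UTR of 2523 bases. Without bulges, and counting Watson-Crick pairs only, 22 of the 23 positions of miR-708-5p faced a complementary base. The run was unbroken from position 1 to 18, and position 19 was the unpaired one. The site is present in 16 of the 26 annotated 3'UTRs of Cntn4. Counts sum over the transcripts of a gene, so the share of Cntn4 RNA that holds the site is not known. The Nnat site, at chr2:157404325-157404347 on the plus strand, also paired at 22 positions, from 2 to 23, and is present in 11 of 13 annotated 3'UTRs. Nnat encodes neuronatin, a small protein of the endoplasmic reticulum.

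Seed sites were searched on the transcript strand as AGCTCCTA, AGCTCCT or GCTCCTA, of which the first contains both others. They were found in the longest 3'UTR of 5 of the 10 genes, against 26.5% of the 14808 tested genes with a 3'UTR. Cntn1, Cntn2, Cntn4, Cntnap1 and Cntnap5a held 8 such sites, and Cntn3, Cntn5, Cntn6, Cntnap2 and Cntnap4 held none in any annotated 3'UTR. Apart from the Cntn4 site, the sites paired at 10 to 13 positions, near the median of 11 over the 5192 sites of all tested genes. The Cntn1 site (chr15:92183770-92183792, plus strand) paired at 11 positions and the Cntnap1 site shown (chr11:101081402-101081424, plus strand) at 13. Only 4 sites in all tested genes paired at 20 or more positions. Besides Cntn4 and Nnat these were in Kpna4, which encodes a nuclear import receptor, and Trp53bp1, which encodes a DNA repair protein. Kpna4 and Trp53bp1 were named after their values were seen.

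**Figure D1:**
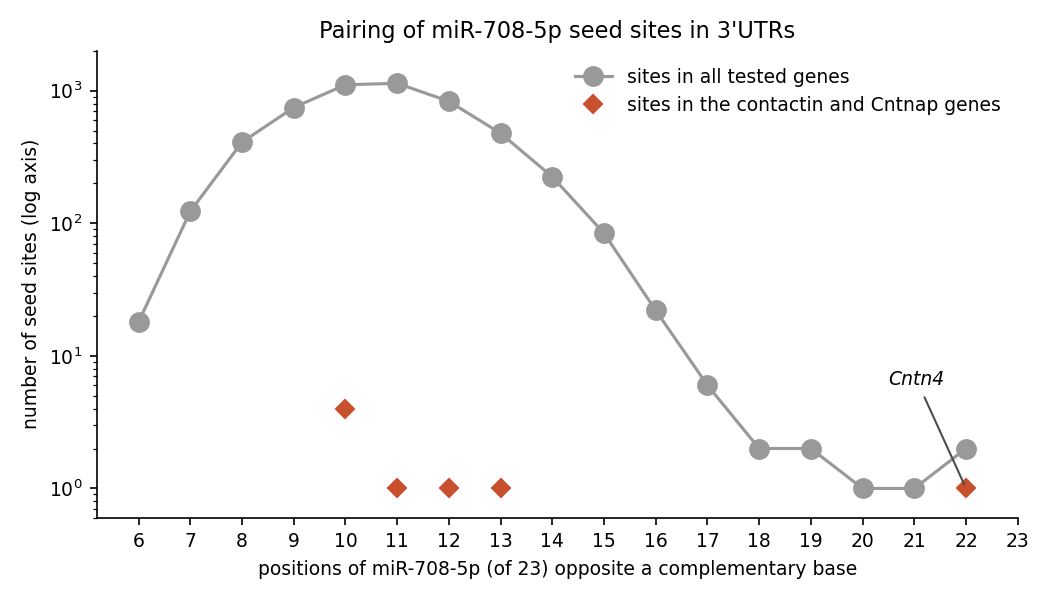
Number of miR-708-5p seed sites in the longest 3'UTR of each gene (log axis) against the number of microRNA positions, of 23, that face a complementary base. Grey points are all tested genes and red diamonds the 10 genes described here. The Cntn4 site stands at 22 positions, while the other sites in these genes stand at 10 to 13.

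Levels between genes were compared per kilobase of annotated exon. Cntnap1 had the highest level of the 10, with 32.1 ± 3.32 CPM per kilobase (SD, n = 8), followed by Cntn1 with 20.6 ± 1.19, Cntn2 with 15.1 ± 1.78 and Cntnap2 with 11 ± 1.04. These are the 4 genes of the paranode and juxtaparanode. The other 6 genes were lower. Cntnap5a had 2.6 ± 0.506 CPM per kilobase, Cntn3 2.44 ± 0.265, Cntnap4 2.37 ± 0.459, Cntn4 1.62 ± 0.452, Cntn6 0.705 ± 0.219 and Cntn5 0.342 ± 0.139. The ranges over the 8 libraries were separate between Cntnap1 and Cntn1, between Cntn1 and Cntn2, and between Cntnap2 and Cntnap5a. All other neighbours in this order overlapped, and Cntnap5a was above Cntn3, and Cntn3 above Cntnap4, in only 5 of 8 libraries each. With the length of the longest transcript in place of all exons, Cntn1 came first with 49.6 CPM per kilobase, Cntnap1 followed with 35.1, and Cntnap5a fell to place 8. Per kilobase of annotated exon, Cntn1 and Cntn2 together made up most of the contactin level. Cntn1 held between 46.1% and 54.4% and Cntn2 between 33% and 44.7% of the sum over the 6 contactins in each library. These shares depend on the length used. By the longest transcript Cntn1 had 49.6 and Cntn2 19.6 CPM per kilobase, against 20.6 and 15.1 by all exons. Among the 4 contactin-associated proteins, Cntnap1 made up 65% to 67.9%.

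**Figure D2:**
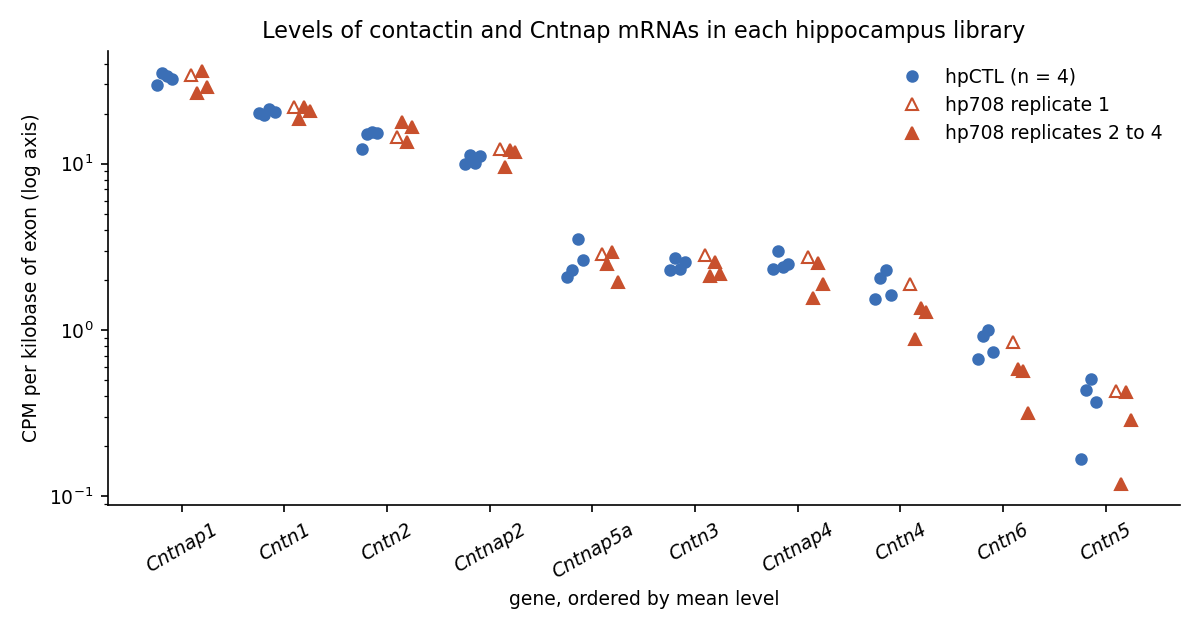
CPM per kilobase of exon (log axis) of the 10 genes in each library, with hpCTL as blue circles, the library labelled hp708 replicate 1 as an open triangle and hp708 replicates 2 to 4 as filled triangles. Cntnap1, Cntn1, Cntn2 and Cntnap2 lie between 9.52 and 35.9 in all libraries, and the other 6 genes between 0.118 and 3.52.

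Most of these genes are very long. Cntnap2 spans 2245 kb of chromosome 6, which made it number 4 among 17162 tested genes with a known span, whose median was 24.3 kb. Cntn5 spans 1246 kb, Cntn4 1023 kb and Cntnap5a 903 kb, and exons made up 0.458% to 1.21% of these 4 genes. Cntn3, Cntnap4, Cntn6 and Cntn1 span between 291 and 410 kb. Cntn2 with 33.8 kb and Cntnap1 with 21.4 kb are of ordinary size. Cntn3, Cntn6 and Cntn4 follow each other on chromosome 6, with gaps of 1919 kb and 814 kb between them.

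At the paranode, neither gene of the pair differed between the groups beyond the spread of the libraries. Cntn1 had 343, 332, 365 and 350 CPM in hpCTL replicates 1 to 4, and 373, 315, 373 and 353 in hp708. The hp708 values reached both above and below those of hpCTL. The log2 fold change, hp708 against hpCTL, was 0.05 (standard error (SE) 0.05, false discovery rate (FDR) 0.84, edgeR's quasi-likelihood test), and -0.01 without the library labelled hp708 replicate 1. Cntn1 had the smallest spread of the 10 genes, with 1.19 times between the lowest and highest library. Cntnap1, its partner on the axon, had 217, 258, 245 and 237 CPM in hpCTL and 251, 195, 262 and 211 in hp708. Its log2 fold change was -0.02 (SE 0.07, FDR 0.96 in the same test), and -0.20 without the library labelled hp708 replicate 1 (SE 0.06, FDR 0.212), or -0.10 without the surrogate variables as well (SE 0.11). The exons of Cntnap1 overlap those of Ezh1 on the opposite strand over 814 bases, 11.1% of its exon length. The counting is not stated to use strand, so reads there cannot be assigned to either gene.

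At the juxtaparanode, Cntn2, which is made by neurons and by oligodendrocytes, had 118, 145, 151 and 149 CPM in hpCTL and 140, 173, 131 and 161 in hp708. The groups overlapped, with the highest value in hp708 replicate 2 and the lowest in hpCTL replicate 1. Its log2 fold change was 0.01 (SE 0.05, FDR 0.96, quasi-likelihood test), and 0.12 without the library labelled hp708 replicate 1 (FDR 0.523). The 10 oligodendrocyte markers, with Mbp among them, were likewise highest in hp708 replicate 2, where their mean was 8.54 log2 CPM against 7.61 to 8.12 in the other 7 libraries. With that list as covariate instead of the surrogate variables, Cntn2 had a log2 fold change of 0.05 (SE 0.10). Cntnap2, its partner, had 102, 116, 103 and 115 CPM in hpCTL and 126, 97.8, 125 and 120 in hp708. Here 3 of 4 hp708 libraries lay above every hpCTL library, and hp708 replicate 2 lay below them all. The log2 fold change was 0.13 (SE 0.06, unadjusted p = 0.0491, FDR 0.648 from the quasi-likelihood test). It was 0.01 without the library labelled hp708 replicate 1 (FDR 0.969).

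Cntn4, with the near-complete site, had 16, 21.3, 23.9 and 17 CPM in hpCTL replicates 1 to 4, and 19.5, 9.22, 14.2 and 13.4 in hp708 replicates 1 to 4. Replicates 2 to 4 of hp708 lay below every hpCTL library, and the library labelled hp708 replicate 1 lay within the hpCTL range. The group means were 19.5 ± 3.73 CPM in hpCTL and 14.1 ± 4.22 in hp708 (SD, n = 4), resting on 212 to 583 counts per library. The log2 fold change was -0.42 (SE 0.15, unadjusted p = 0.03), which did not pass the threshold over all genes (FDR 0.611, quasi-likelihood test). Without the library labelled hp708 replicate 1 it was -0.79 (SE 0.10, FDR 0.035), and the fit then called 56 of 17425 genes (0.321%). Leaving out that library and the surrogate variables gave -0.67, with an FDR of 0.999. Leaving out hpCTL replicate 3, the highest library, gave -0.28. For the other genes with a site paired at 20 or more positions, the log2 fold change over all 8 libraries was -0.21 for Nnat (SE 0.12, FDR 0.735), 0.02 for Kpna4 (SE 0.04) and -0.02 for Trp53bp1 (SE 0.08). Nnat was at -0.58 without the library labelled hp708 replicate 1 (SE 0.08, FDR 0.0461), and at -0.49 without the surrogate variables as well (FDR 0.999).

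Cntn6, which has no seed site, had the same arrangement of libraries as Cntn4. Its values were 5.93, 8.09, 8.78 and 6.53 CPM in hpCTL and 7.5, 5.13, 5.03 and 2.81 in hp708, where again only the library labelled hp708 replicate 1 reached the hpCTL range. The log2 fold change was -0.50 (SE 0.25, unadjusted p = 0.0874, FDR 0.711). Without that library it was -0.98 (SE 0.21, FDR 0.112), and without hpCTL replicate 3 it was -0.28. Cntn5 had the lowest counts, 18 to 82 per library. It stood at 1.11, 2.89, 3.36 and 2.44 CPM in hpCTL and 2.86, 0.783, 2.81 and 1.9 in hp708. These values varied by 4.3 times, with a coefficient of variation of 40.6% against 13.3% from counting alone. The log2 fold change was -0.18 (SE 0.21, FDR 0.879), and -0.85 without the library labelled hp708 replicate 1 (SE 0.23, FDR 0.186). Leaving out the surrogate variables too gave -0.41 for Cntn5 (SE 0.47) and -0.76 for Cntn6 (SE 0.25), both with an FDR of 0.999. Cntn3 had 16.8, 19.9, 17.1 and 18.9 CPM in hpCTL and 20.8, 15.4, 18.7 and 15.9 in hp708. Its hp708 values lay on both sides of hpCTL, with a log2 fold change of 0.02 (SE 0.08, FDR 0.975) and -0.20 without that library (FDR 0.502).

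Of the other contactin-associated proteins, Cntnap4, known from interneuron synapses, had 22.1, 28.6, 22.6 and 23.9 CPM in hpCTL and 26.2, 14.9, 24.2 and 18.1 in hp708. In hp708, replicates 2 and 4 were below every hpCTL library and replicates 1 and 3 were within their range. The log2 fold change was -0.14 (SE 0.11, FDR 0.802), and -0.49 without the library labelled hp708 replicate 1 (SE 0.10, FDR 0.104), or -0.35 without the surrogate variables as well (SE 0.17). The list of 8 interneuron markers had a mean of 5.80 log2 CPM in hpCTL and 5.71 in hp708. Cntnap5a, one of the mouse relatives of human CNTNAP5, had 22.9, 25.3, 38.5 and 28.8 CPM in hpCTL and 31.2, 27.5, 32.2 and 21.4 in hp708. The hpCTL libraries spanned more than the hp708 ones, and the log2 fold change was -0.03 (SE 0.19, FDR 0.983). It was -0.21 without the library labelled hp708 replicate 1 (FDR 0.74). The 3 remaining genes of the family in the tested set, Cntnap3, Cntnap5b and Cntnap5c, had log2 fold changes of -0.29, -0.01 and 0.24, with the lowest FDR at 0.668. Without the library labelled hp708 replicate 1 these were -0.85 (FDR 0.0878), -0.55 and -0.19, and with the surrogate variables left out as well -0.56, -0.17 and 0.14.

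Among the 10 genes 0 had an FDR below 0.05 in the quasi-likelihood test, as did 1 of all 17252 (0.00580%). At an unadjusted p below 0.05 there were 2 of 10, Cntn4 lower and Cntnap2 higher in hp708, against 7.70% of all tested genes (4.87% lower and 2.82% higher). The groups did not overlap for 0 of the 10 genes, against 1.51% of all (0.812% lower and 0.701% higher in hp708). The median log2 fold change was -0.02, and it was -0.01 over all tested genes. The median of the 10 was -0.21 when hp708 replicate 1 was left out, -0.14 when hpCTL replicate 1 was, and -0.17 where every library had to hold at least 10 counts. It was above 0 in other fits, at 0.07 with the list of subiculum markers as covariate and 0.03 when hpCTL replicate 2 was left out. Replicates 2 to 4 of hp708 lay below every hpCTL library for 2 of 10 genes, Cntn4 and Cntn6, against 3.12% of all genes, and above every hpCTL library for 0 of 10, against 1.80%. Without the library labelled hp708 replicate 1, 5 of 10 genes had an unadjusted p below 0.05, against 12.2% of the genes then tested in either direction. These were Cntn4, Cntn5, Cntn6, Cntnap1 and Cntnap4, all lower in hp708. Without surrogate variables as well, 2 of 10 had such a p, against 3.42%. When hpCTL replicate 1 was left out instead, 5 of 10 had one, all lower in hp708, against 9.67% in either direction. Leaving out the surrogate variables too gave 1 of 10, against 1.99%. With all 8 libraries and no surrogate variables, 0 of 10 had one in edgeR, against 1.81%, and 1 in DESeq2 (Cntn4), against 1.84%. The library labelled hp708 replicate 1 was the highest of its group for 6 of 10 genes, against 21.0% of all. These were Cntn3, Cntn4, Cntn5, Cntn6, Cntnap2 and Cntnap4. Replicate 2 of hp708 was the lowest of all 8 libraries for 7 of 10, against 16.7%. When hp708 replicate 2 was left out, Cntn4 stood at a log2 fold change of -0.37, Cntn6 at -0.69 and Cntnap2 at 0.16.

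**Figure D3:**
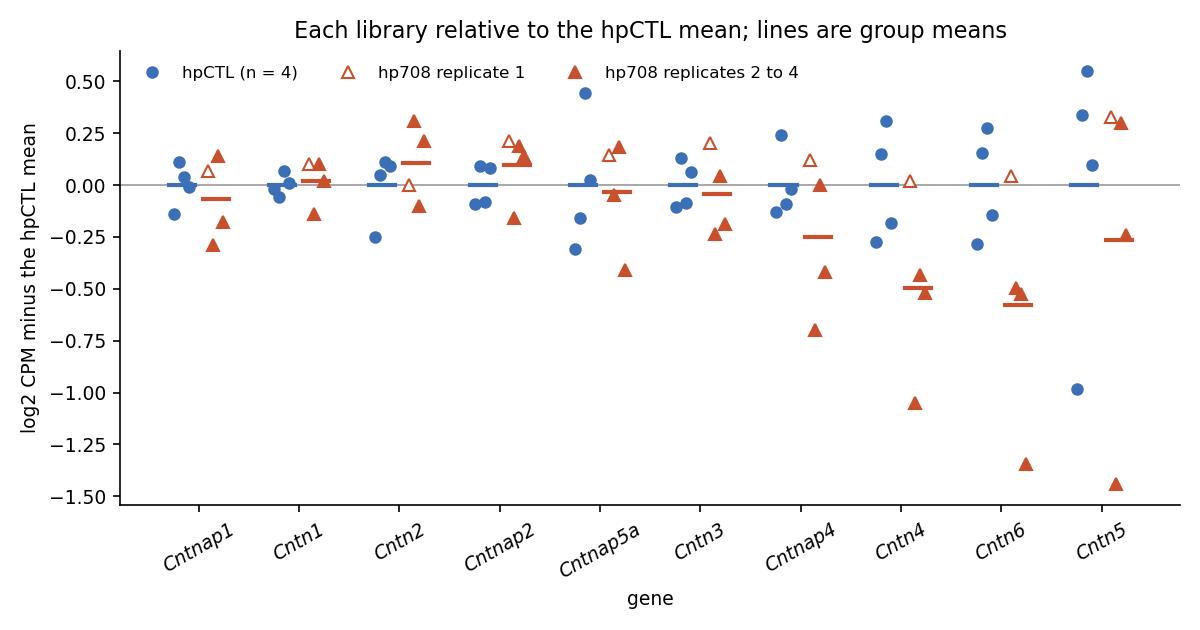
Log2 CPM of each library minus the hpCTL mean of the gene, with symbols as for the levels and horizontal lines at the group means. Replicates 2 to 4 of hp708 lie below all hpCTL libraries for Cntn4 and Cntn6, and the open triangle of hp708 replicate 1 lies within the hpCTL range for both.

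Markers of the subiculum, the output region next to CA1, separated hp708 replicates 2 to 4 from the other libraries, as Cntn4 and Cntn6 did. The mean of the 7 markers was 4.10, 4.66, 4.57 and 4.62 log2 CPM in hpCTL and 4.71, 3.77, 3.80 and 3.06 in hp708. As for both genes, the library labelled hp708 replicate 1 was with the hpCTL libraries and the other 3 hp708 libraries were below them all. Within hp708 the list and Cntn6 were lowest in replicate 4, at 3.06 and 1.53 log2 CPM. Cntn4 was lowest in replicate 2, at 3.22, against 3.75 in replicate 4. All 7 markers had a lower mean in hp708, but the difference of -0.65 did not pass the exact permutation test (two-sided, p = 0.143). The difference was -0.94 without the library labelled hp708 replicate 1 and -0.39 without hp708 replicate 4. The summed level of the list ranged from 204 to 319 CPM in hpCTL and from 183 to 303 in hp708, and 0 of its genes were at or under 3 counts. When the mean of this list replaced the surrogate variables as covariate, Cntn4 had a log2 fold change of -0.22 (SE 0.23, FDR 0.968 in edgeR's quasi-likelihood test). It was -0.06 for Cntn6 (SE 0.19), -0.0044 for Cntnap4 (SE 0.18) and 0.19 for Cntn5 (SE 0.52). The neocortical list also had a lower mean in hp708, by -0.31 (exact permutation p = 0.171), and the CA2 and CA3 lists higher ones, by 0.30 and 0.24 (exact permutation p = 0.143 and 0.114). Without the library labelled hp708 replicate 1 these differences were -0.48, 0.37 and 0.28. The part of the dissected regions in the values of Cntn4 and Cntn6 was not tested beyond these fits.

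**Figure D4:**
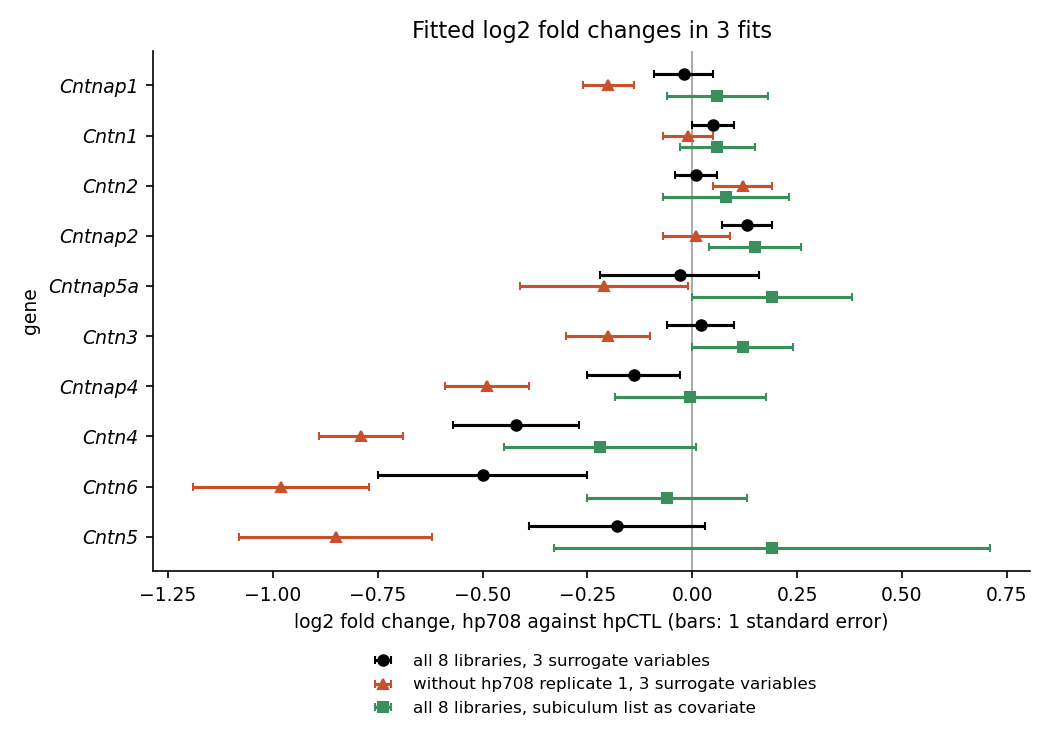
Log2 fold change, hp708 against hpCTL, with 1 standard error, for the 10 genes in 3 fits. Black circles are all 8 libraries with 3 surrogate variables, red triangles the fit without hp708 replicate 1, and green squares all 8 libraries with the subiculum list as covariate. Cntn4 moves from -0.42 to -0.79 and -0.22 across these fits, and Cntn6 from -0.50 to -0.98 and -0.06.

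**Figure D5:**
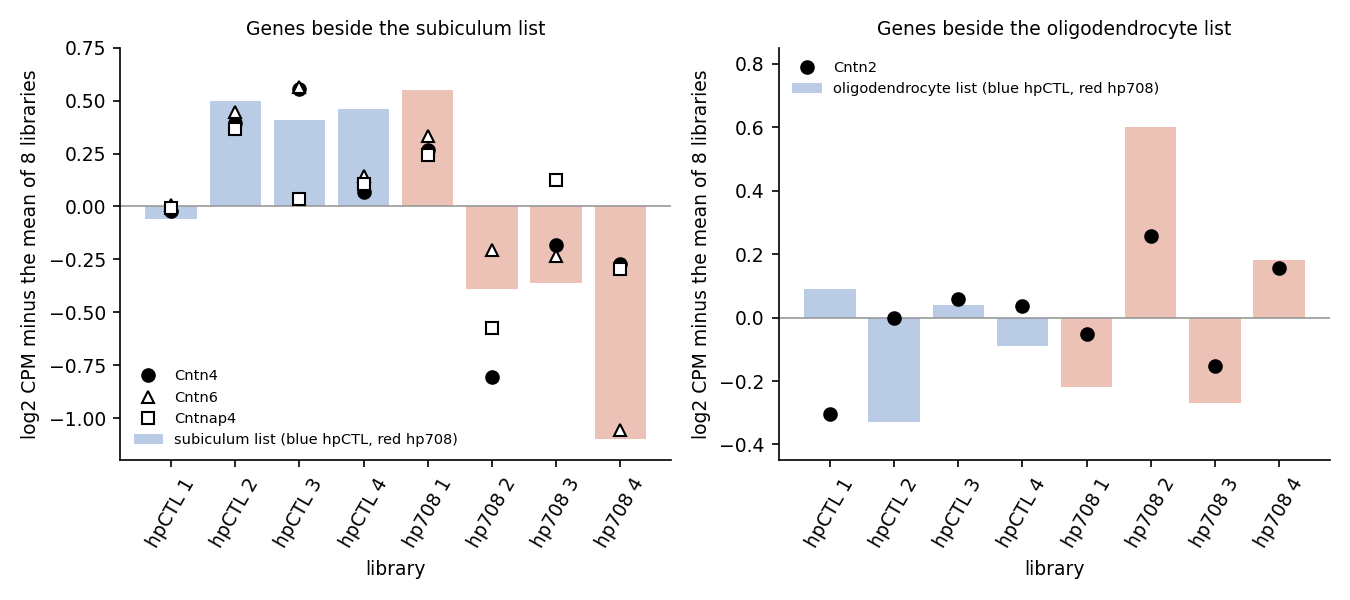
Left, log2 CPM of Cntn4, Cntn6 and Cntnap4 in each library, minus the mean of the 8 libraries, as symbols, over bars for the subiculum list (blue hpCTL, red hp708). Right, Cntn2 over the oligodendrocyte list. The subiculum list, Cntn4 and Cntn6 are lowest in hp708 replicates 2 to 4, while the oligodendrocyte list and Cntn2 are highest in hp708 replicate 2.

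The partners of these proteins were examined through 2 further lists. Of 27 genes for molecules of the node, paranode, juxtaparanode and axon initial segment, 0 passed an FDR of 0.05 and 7 had an unadjusted p below 0.05, all higher in hp708, against 2.82% of tested genes higher at that p. They included Kcna1, Ank3, Scn8a, Nfasc, Dlg4 and Ank2. The 7 became 0 in edgeR with 0, 1 or 2 surrogate variables, with either the subiculum or the oligodendrocyte list as covariate, and with the replicate number as a block. The share of all tested genes at that p was also lower there, between 1.58% and 4.10%. Without the library labelled hp708 replicate 1 there were 6, of which 4 were higher, against 12.2% of all genes then tested, and 0 when the surrogate variables were left out too, against 3.42%. The median log2 fold change of the list was 0.06, with 23 genes higher and 4 lower, where 8076 of the tested genes were higher and 9176 lower. That median was 0.02 when hp708 replicate 1 was left out and 0.03 when hpCTL replicate 1 was. Kcna1, the Kv1.1 potassium channel held at the juxtaparanode by Cntn2 and Cntnap2, had 20.7, 38.7, 48.1 and 43.4 CPM in hpCTL and 45.2, 31.7, 58 and 62 in hp708. The groups overlapped, with hpCTL replicate 1 the lowest. Its log2 fold change was 0.34 (SE 0.06, FDR 0.294, quasi-likelihood test), while edgeR's likelihood ratio test and DESeq2 with the same surrogate variables gave FDRs of 0.00822 and 0.0261. With 0, 1 and 2 surrogate variables in edgeR its unadjusted p was 0.181, 0.129 and 0.167 (quasi-likelihood fits across all genes), and DESeq2 without surrogate variables gave an FDR of 1. It stood at 0.24 without the library labelled hp708 replicate 1 (SE 0.09, FDR 0.327). Ank3, the ankyrin-G scaffold of node and initial segment, had a log2 fold change of 0.18 (SE 0.05, FDR 0.511), and of 0.05 without that library. With the surrogate variables left out as well, Kcna1 stood at 0.43 and Ank3 at 0.16. Leaving out hpCTL replicate 1 put Kcna1 at 0.25 (SE 0.06, FDR 0.266) and Ank3 at 0.11 (SE 0.05). Without that hpCTL library and the surrogate variables they stood at 0.18 (SE 0.21) and 0.07 (SE 0.13). Kcna1 stood at 0.22 when hp708 replicate 4 was left out. Of the 13 binding partners and processing enzymes of contactins that were tested, 0 passed and 2 had an unadjusted p below 0.05, against 7.70% of all tested genes. These 2 became 0 under the same 6 settings. Both were higher in hp708. Leaving out hp708 replicate 1 gave 2 that were lower, L1cam and Chl1, against 12.2% of all genes then tested in either direction. Leaving out hpCTL replicate 1 gave 1 that was lower, L1cam, against 9.67% in either direction. With the surrogate variables left out too, each gave 0, against 3.42% and 1.99%. The cell adhesion genes L1cam and Chl1 are named after their values were seen. Tnr, tenascin-R of the extracellular matrix, had a log2 fold change of 0.25 (SE 0.09, FDR 0.594), Notch1 0.13 (SE 0.05, FDR 0.594) and Bace1, a protease, 0.04 (SE 0.05, FDR 0.867). Tnr stood at 0.04, Notch1 at 0.11 and Bace1 at -0.03 without the library labelled hp708 replicate 1, and at 0.24, 0.18 and 0.01 without the surrogate variables as well. When hpCTL replicate 1 was left out, Tnr stood at 0.09 and Notch1 at 0.09, and at 0.08 and 0.05 without the surrogate variables as well. Notch1 stood at 0.06 when hp708 replicate 4 was left out.

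To describe which other genes ran alongside each member, the root mean square difference of centred log2 CPM over the 8 libraries was computed against every tested gene. Cntn4, whose own root mean square was 0.40, was closest to Mir3098 (0.141), Gm10432 (0.156) and Aldh3a1 (0.166). Cntn6, with 0.48, was closest to Prr16 (0.135), Kctd8 (0.14) and Col2a1 (0.175). Cntnap4, with 0.28, was closest to Pdss1 (0.0701), Fbn2 (0.0883) and Gm12059 (0.0917), and Cntn5, with 0.67, to Gm45110 (0.196), Pde11a (0.225) and Aff2 (0.243). The own root mean squares of the other members were lower, from 0.08 for Cntn1 to 0.26 for Cntnap5a. Such a distance shrinks with a gene's own variation, so distances were not compared between members. Cntn1 lay 0.0251 from Foxj3 and Cntnap1 0.0265 from Slc7a8. Cntn3 lay 0.0366 from Mtss2, Cntn2 0.0401 from Lrch4 and Cntnap2 0.0436 from Dnajc16, whereas Cntnap5a lay 0.102 from Gm44037. Some of these neighbours had few counts per library, 10 to 25 for Mir3098, 9 to 27 for Aldh3a1, 4 to 24 for Gm45110 and 15 to 35 for Gm12059. All 8 libraries entered each of these distances, and no test was attached to them.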

How the data were processed

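STAR 2.7.8a (genome GRCm39, annotation GENCODE M26) and featureCounts 1.6.4 were used by the authors, who deposited unnormalized counts per gene. How strand and multi-mapping reads were handled is not given in the sources used here. Identifiers were named from GENCODE M39 (39641 of 40659), which also gave exon lengths, 3'UTRs and coordinates, so lengths and isoforms differ from those the authors counted on. Ptprg, 1 of 14 contactin partners, was not matched by name. The column of each animal was matched by its number.

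Low counts were removed by filterByExpr, and groups were compared with the quasi-likelihood test of edgeR 4.0.16 (R 4.3.3) in the manner of edgeR 3. Library sizes were normalized by TMM, svaseq of sva 3.50.0 gave 3 surrogate variables, and FDRs are Benjamini-Hochberg values over all tested genes. The study's methods name a likelihood ratio test, its figure legend the quasi-likelihood model. A prior count of 2 was added for log2 CPM, and each standard error is the log2 fold change divided by the root of its test statistic. List means were compared by exact permutation over 70 regroupings, two-sided. Seed sites were searched with Python 3.11.15 in the longest 3'UTR per gene. The fits were tested on simulated data. DESeq2 1.42.0, other filters, other surrogate variables, the replicate number as a block and leaving out each library were alternatives. Within groups, chi-square per degree of freedom between libraries was 10 to 46.2, over genes with at least 20 counts, so none was a copy of another.

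The members, lists and tests were chosen with earlier results of these data known. Named are the 10 members, the 3 other Cntnap genes, Nnat for its site, Mir708, the 3 genes of the lowest unadjusted p per pathway list, and the 3 tested genes closest to each member. One gene that this rule names is not reported here. Scn8a, Nfasc, Dlg4, Ank2, Kpna4 and Trp53bp1 are named in addition, after their values were seen.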

Additional observations from a re-analysis of the deposited data

Results flagged for a closer look

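Among 70 groups of 4 libraries (named genes and marker lists), 6 held an outlying library. Its gap to the nearest other, divided by the range of the 4, exceeded Dixon's 95% critical value for 4 values. Chance gives about 1 in 20 groups, or 3.5 here. None of the 10 contactin and Cntnap genes was among them. In hp708, Cntnap5c was low in replicate 2, at 5.13 CPM, with 13.1 to 14 in the others. In hpCTL, replicate 1 was low for 2 contactin partners, Tnr at 121 CPM and Notch1 at 31.6 CPM. The same library was low for the subiculum list, at a mean of 4.10 log2 CPM, and high for the CA3 list, at 4.77. The thalamus list was high in hp708 replicate 2, at 3.36.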

How the results depend on the processing

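The 10 genes had 0 calls at an FDR of 0.05 under each of the 14 alternatives, with 0 to 3 at an unadjusted p below 0.05. Leaving out each library gave 0 to 1, the 1 being Cntn4 without hp708 replicate 1. Over all genes, the fit of the report called 1. The same quasi-likelihood test of edgeR called 0 without surrogate variables (312 at an unadjusted p below 0.05), 0 with 1 (593) and 0 with 2 of them, 0 with the subiculum (338) or the oligodendrocyte list (479) as covariate, and 0 where each library had to hold at least 10 counts (907). With surrogate variables taken from CPM, chosen after seeing the data, the call count was 0 (2098). The likelihood ratio test called 127, DESeq2 96 with and 2 without surrogate variables, edgeR 4's quasi-likelihood method 3, and the fit without a filter 12. Leaving out each library gave 0 (520 at an unadjusted p below 0.05, without hpCTL replicate 3) to 56 calls, and 0 each time without surrogate variables. For the axon list the likelihood ratio test and DESeq2 with surrogate variables called 1, Kcna1. The genes of that list and of the partner list with an unadjusted p below 0.05 numbered 7 and 2, and 0 and 0 in 7 alternatives, all without the 3 surrogate variables. By the longest transcript, 5 of the 10 genes kept their place in the order of levels.

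Of 300 log2 fold changes over 30 settings, 264 kept direction and call, 35 changed sign and 1 came to pass. Those of Cntn4, Cntn6, Cntnap2 and Cntnap4 kept their sign throughout. Cntn4 ranged from -0.59 to -0.22 over the alternatives and from -0.79 to -0.28 over the left-out libraries. Cntn3 was -0.04, -0.03 and -0.02 with 0, 1 and 2 surrogate variables, -0.03 by DESeq2 without them, -0.13 with at least 10 counts, -0.07 with surrogate variables from CPM, -0.20 to 0.08 over left-out libraries, and without surrogate variables -0.12, -0.07, -0.06, -0.06 and -0.02 over 5 of these. Cntn5 was 0.19 with the subiculum list, 0.02 without a filter, -0.85 to 0.03 over left-out libraries and 0.05 without hp708 replicate 2 and surrogate variables. Cntnap1 was 0.06 with the subiculum and 0.0018 with the oligodendrocyte list, 0.01 without a filter, -0.20 to 0.04 over left-out libraries and 0.01 without hp708 replicate 2 and surrogate variables. Cntnap5a was 0.19 with the subiculum list, -0.21 to 0.20 over left-out libraries, and 0.13 and 0.07 without surrogate variables and hpCTL replicate 3 or hp708 replicate 4. Cntn1 ranged from -0.01 to 0.09 and Cntn2 from -0.04 to 0.12 over left-out libraries. The causes of these changes were not tested.

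Samples share only a replicate number between the groups. Deviations from the group means correlated between -0.041 and 0.018 for equal numbers, so they were not treated as pairs. With the replicate number as a block and no surrogate variables, 1 gene was called, 0 of the 10 were, and the log2 fold change was -0.50 for Cntn4 and -0.04 for Cntn3.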
